A study of Mus musculus with 8 samples.

Results

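Elastic fibre and microfibril genes are described here as a set of 10 genes, *Eln*, *Fbn1*, *Fbn2*, *Mfap2*, *Fbln5*, *Efemp2*, *Efemp1*, *Fbln1*, *Fbln2* and *Emilin1*. They were taken by name from the 54532 genes of the deposited expression table, and all 10 were found and passed the filter on low values. An elastic fibre has a core of crosslinked elastin laid on a scaffold of microfibrils, which are polymers of fibrillin. Short fibulins bring elastin monomers to the scaffold, lysyl oxidases crosslink them, and microfibrils also hold latent TGF-β through its binding proteins. In the injured heart these genes are known as products of fibroblasts and of the cells of vessel walls.

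The cells were MICFs, cardiac fibroblasts isolated from the infarcted area of hearts of adult C57BL/6 mice that the study's methods give as 8-week-old males. In every group they carried lentiviruses with doxycycline-inducible MGT, a single construct for *Mef2c*, *Gata4* and *Tbx5*, beside *Myocd*, *Sall4* and eGFP. The labels give this genotype as MGTMyoS overexpression. For the *in vivo* samples such cells were injected into the left ventricle of C57BL/6 mice right after ligation of the coronary artery. These hosts received tacrolimus, mycophenolate mofetil and methylprednisolone each day and doxycycline in their water. The *in vitro* samples were cells of the same infection kept in culture with doxycycline. The study's medium for reprogramming in culture also holds SB431542, an inhibitor of the TGF-β receptor, and baricitinib, an inhibitor of JAK kinases, but the sources used here do not say whether these *in vitro* samples were kept in it. Cells positive for eGFP were sorted on Days 7 and 14, called 1 week and 2 weeks, with 2 libraries in each of the 4 groups. The heart, the culture medium, the drugs given to the hosts and the digestion of the tissue changed together, so their parts in any *in vivo* to *in vitro* difference cannot be told apart. Which animals or wells a library came from is not stated, so p-values measure only the spread between these samples, which may be technical.

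Expression is given as FPKM, fragments scaled by gene length and library size, so levels may be compared between genes. Each library held 12304242 to 14546904 fragments on genes. Replicates differed by more than counting error, with a chi-square per gene between 4.25 and 9.22. Groups were compared with limma on log2(FPKM + 0.1) over 15708 genes, and changed genes were those with a p under 0.01 after Benjamini-Hochberg adjustment whose log2 fold change was also over 1 in size. Errors beside log2 fold changes are standard errors. The sorted cells expressed all 10 fibroblast markers of a list written for this comparison in all 8 libraries, with a summed FPKM of 10193 to 13277 *in vivo* and 2134 to 3255 *in vitro*. Most of this sum was *Col1a1*, *Col1a2*, *Col3a1* and *Postn*. At both weeks 6 of the 10 passed as higher *in vivo* and 0 as lower. *Pdgfra* was at 20.1 to 27.8 *in vivo* and 19.8 to 24.4 *in vitro*, and *Thy1* at 19.3 to 24.2 and 22.6 to 42.2. Markers of other cells were present too and differed between the groups. Macrophage markers summed to 2009 to 3150 *in vivo* and 4951 to 6073 *in vitro*, of which *Lyz2* alone made 975 to 1453 and 2921 to 4014. Of these 12 markers only *Fcgr1* and *Lyz2* passed the test at 1 week, *Fcgr1* being higher and *Lyz2* lower *in vivo*, while the 2 weeks comparison found 0 higher and 6 lower. Endothelial markers summed to 94.6 to 106 *in vivo* and 21.8 to 53.3 *in vitro*. Markers of smooth muscle and mural cells summed to 584 to 793 and 935 to 1069, most of it *Acta2*, at 399 to 599.9 and 756 to 819. *In vivo* cells had higher levels of 3 of these 10 markers and lower levels of 2 at the earlier time, against 2 and 3 at the later one. Mural markers went both ways. *Rgs5* was at 42.1 to 78.6 *in vivo* and 4.16 to 22.8 *in vitro*, while *Notch3* was at 13.4 to 21.1 and 37.6 to 62.8. *Des* was at 19.8 to 23.4 *in vivo* and 30.7 to 55.4 *in vitro*. Cardiomyocyte markers summed to 10.5 to 25.8 *in vivo* and 111 to 631 *in vitro*. Of the 8 that were tested, 1 was higher and 6 were lower *in vivo* at 1 week, and 2 and 6 at 2 weeks. The study reads such genes as a measure of reprogramming of the MICFs themselves, and reported them as suppressed *in vivo*. The summed levels of mesothelial markers are given beside *Efemp1*. No marker was at 0 in all libraries of a group, and *Myh7*, *Pln* and *Myl2* had at most 3 fragments in each library of at least 1 group. The part of any of these cells in the results was not tested. In bulk libraries, fewer cells of a type and less RNA per cell cannot be told apart.

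Coordinates are on the mm10 build and leave out *Fbn2*. *Eln* spans 134702593 to 134747323 on the minus strand of chromosome 5 and *Emilin1* spans 30913402 to 30921277 on its plus strand. *Fbn1* is at 125300594 to 125507993 on the minus strand of chromosome 2. Both fibrillin genes have 65 exons in their longest coding transcript of GENCODE vM21, and *Eln* has 37. The remaining genes are *Mfap2* on chromosome 4 (141010418 to 141015984), *Fbln2* on chromosome 6 (91212455 to 91272540), *Efemp1* on chromosome 11 (28853204 to 28926743), *Fbln5* on chromosome 12 (101746565 to 101819055), *Fbln1* on chromosome 15 (85205949 to 85286535) and *Efemp2* on chromosome 19 (5473973 to 5481853). Exons of 4 of the genes overlap a gene on the opposite strand, and whether counting used strand is not given in the sources used here. The partner of *Eln*, *Gm30003*, reached at most 0.214 FPKM, and that of *Fbn1*, *Gm9913*, at most 1.33 FPKM. *Mus81*, which overlaps *Efemp2*, was at 4.17 to 6.02 FPKM. *Gm26507*, which overlaps *Fbn2*, was at 0 to 1.31 FPKM over all 8 libraries, and *Fbn2 in vitro* was at 0.491 to 0.744 FPKM. Which library held the highest value of *Gm26507* is not reported here.

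*Fbln5* and *Efemp1* are both short fibulins and went in opposite directions between the groups, so the sequences around their transcription starts are shown. They come from RefSeq on GRCm38.p6, which held such a sequence for 8 of the 10 genes and none for *Eln* or *Fbn2*. Each runs from 250 bases before the start, in lower case, through the start and the bases after it, 50 in all, in capitals. The sequence of *Fbln5* is chr12:101819070-101819369 on the minus strand and that of *Efemp1* is chr11:28852955-28853254 on the plus strand.
Fbln5: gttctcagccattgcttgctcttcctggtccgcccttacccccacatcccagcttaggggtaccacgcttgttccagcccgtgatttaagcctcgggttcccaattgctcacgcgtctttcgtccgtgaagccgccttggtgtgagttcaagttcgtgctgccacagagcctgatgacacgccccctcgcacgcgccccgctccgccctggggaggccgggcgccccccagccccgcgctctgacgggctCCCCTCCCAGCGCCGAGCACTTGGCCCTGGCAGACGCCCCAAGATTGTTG
Efemp1: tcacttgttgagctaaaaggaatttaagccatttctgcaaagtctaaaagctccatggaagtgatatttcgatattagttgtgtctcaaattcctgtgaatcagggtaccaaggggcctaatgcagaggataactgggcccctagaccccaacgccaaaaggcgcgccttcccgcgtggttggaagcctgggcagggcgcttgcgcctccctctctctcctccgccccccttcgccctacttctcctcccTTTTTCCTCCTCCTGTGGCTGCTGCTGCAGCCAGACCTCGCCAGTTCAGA
Both were searched on both strands for the SMAD palindrome GTCTAGAC, the CAGA box core AGCCAGAC, TATAAA, the GATA motif AGATAA and the T-box motif AGGTGT, of which none overlaps another. The only match in the 8 sequences was AGCCAGAC in *Efemp1*, on the plus strand and beginning 28 bases after the start base. These letters occur in 1.29% of 32851 RefSeq sequences of this kind, GTCTAGAC in 0.213%, TATAAA in 13.6%, AGATAA in 11.2% and AGGTGT in 13.7%. The match is a description of letters and was not tested as a site. The GC content was 65.7% for *Fbln5* and 54.3% for *Efemp1*, beside a median of 52.7% over all sequences.

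As a set, the 10 genes took a larger part of the transcriptome in the heart than in culture. Their summed FPKM was 2053 and 2262 in the *in vivo* libraries at 1 week and 3292 and 3166 at 2 weeks. In culture it was 592 and 579 at 1 week and 619 and 619 at 2 weeks. This was 0.660% and 0.735% of all FPKM *in vivo* at 1 week, 0.996% and 0.981% at 2 weeks, and 0.206% to 0.225% in the 4 *in vitro* libraries. The *in vivo* and *in vitro* libraries did not overlap, and the sum was higher at 2 weeks than at 1 week in the heart.

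**Figure D1:**
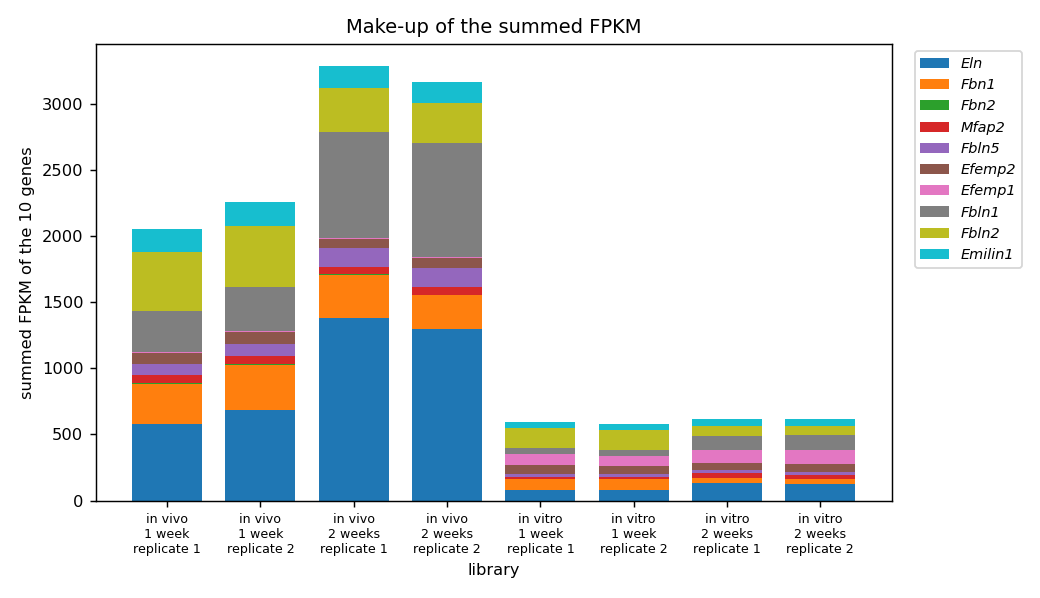
Summed FPKM of the 10 genes in each of the 8 libraries, stacked by gene, with no error bars because each bar is 1 library. *In vivo* bars reach 2053 to 3292 and *in vitro* bars 579 to 619, and *Eln* and *Fbln1* make up more of the *in vivo* bars at 2 weeks than at 1 week.

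At 1 week 8 of the 10 genes were higher and 1, *Efemp1*, was lower *in vivo* than *in vitro*, where 7.79% of all tested genes were higher and 5.07% lower. At 2 weeks 7 were higher and 1, again *Efemp1*, was lower, beside 9.02% and 8.05% of all tested genes. With the weeks fitted together and week as a covariate, 8 were higher and 1 lower, beside 8.63% and 6.74%. The median log2 fold change of the 10 genes was 1.93 at 1 week and 2.36 at 2 weeks, while that of all tested genes was -0.0058 and -0.0034. *Efemp2* passed at neither week and *Mfap2* only at 1 week. The deposited FPKM include a scaling between libraries, and without it the median of all genes moved to -0.34 at 1 week and -0.32 at 2 weeks. Calls over all genes then turned from 1224 higher and 796 lower to 906 and 1558 at 1 week and from 1417 and 1265 to 1032 and 2087 at 2 weeks, while the number of the 10 genes changed stayed at 9 and 8. With the weeks fitted together it fell from 9 to 8, since *Mfap2* was at a log2 fold change of 0.92 (adjusted p = 0.0086) without the scaling, against 1.26 (adjusted p = 0.00261) with it.

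**Figure D2:**
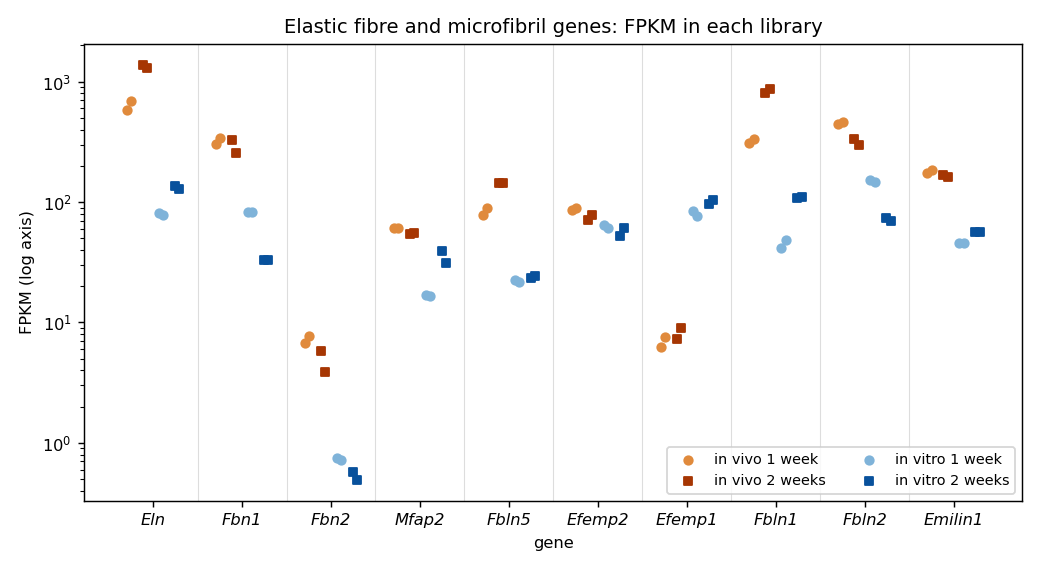
FPKM of the 10 genes on a log axis, with 1 point for each of the 2 libraries per group and no mean drawn. *Efemp1* lies between 6.25 and 8.93 *in vivo* and between 76.5 and 105 *in vitro*, and *Eln* lies between 582 and 1381 *in vivo* and between 78.0 and 135 *in vitro*.

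*Eln* encodes tropoelastin, the monomer of the elastic core. Its FPKM was 582 and 685 *in vivo* at 1 week and 1381 and 1301 at 2 weeks. In culture it was 81.1 and 78.0 at 1 week and 135 and 128 at 2 weeks. Its lowest *in vivo* library was above its highest *in vitro* library, and within each setting both later libraries were above both earlier ones. *Eln* was 7.93-fold higher *in vivo* at 1 week (log2 2.99 ± 0.09, adjusted p = 1.72e-06) and 10.2-fold at 2 weeks (log2 3.35 ± 0.09, adjusted p = 9.62e-07). Ranked by FPKM among all genes, it stood at place 52 and 41 *in vivo* at 1 week and 22 and 20 at 2 weeks, against places 481 and 482 and then 292 and 331 in culture. Relative to *Col1a1*, the chain of type I collagen, the FPKM of *Eln* was 14.1% and 14.5% *in vivo* at 1 week and 42.3% and 47.1% at 2 weeks. In culture this share was 9.52% and 9.04% at 1 week and 35.1% and 35.3% at 2 weeks. Thus the share was higher at 2 weeks in both settings. *Col1a1* itself was lower then, at a mean FPKM of 3011 against 4420 *in vivo* and 374 against 857 *in vitro*.

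*Fbn1* encodes fibrillin-1, the main subunit of adult microfibrils. Its FPKM was 303 and 342 *in vivo* at 1 week and 327 and 253 at 2 weeks. Cultured cells had 82.3 and 83.2 at 1 week and 33.0 and 32.9 at 2 weeks. *In vivo* the libraries of the 2 weeks overlapped, while in culture the later libraries were below the earlier ones. *Fbn1* was 3.89-fold higher *in vivo* at 1 week (log2 1.96 ± 0.12, adjusted p = 3.5e-05) and 8.71-fold at 2 weeks (log2 3.12 ± 0.12, adjusted p = 3.72e-06).

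*Fbn2* encodes fibrillin-2, best known from microfibrils of the embryo, and was the lowest of the 10 genes in 3 of the 4 groups. Its FPKM was 6.70 and 7.78 *in vivo* at 1 week, 5.84 and 3.84 at 2 weeks, 0.744 and 0.722 *in vitro* at 1 week and 0.573 and 0.491 at 2 weeks. These values rest on 70 to 1062 fragments per library. *Fbn2* was 8.79-fold higher *in vivo* at 1 week (log2 3.14 ± 0.21, adjusted p = 5.18e-05) and 7.68-fold at 2 weeks (log2 2.94 ± 0.21, adjusted p = 5.26e-05). It made up 1.496% to 2.22% of the FPKM of both fibrillin genes *in vivo* and 0.860% to 1.71% in culture, and these ranges overlap.

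*Mfap2* encodes MAGP-1, a small glycoprotein of microfibrils that binds fibrillin. Its FPKM was 61.1 and 61.2 *in vivo* at 1 week and 54.2 and 55.1 at 2 weeks. In culture it was 17.004 and 16.6 at 1 week and 38.9 and 31.0 at 2 weeks. Levels in the heart stayed within a narrow range, and those in culture were higher at 2 weeks. The difference was 3.63-fold at 1 week (log2 1.86 ± 0.10, adjusted p = 2.13e-05). At 2 weeks it was 1.57-fold (log2 0.65 ± 0.10, adjusted p = 0.00181), which is under the limit on fold change. In FPKM, *Fbn1* exceeded *Mfap2* by 4.59 to 6.03 times in the 4 *in vivo* libraries and by 4.84 and 5.02 times *in vitro* at 1 week. At 2 weeks in culture this ratio was 0.847 and 1.06, apart from the other 6 libraries.

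*Fbln5*, *Efemp2* and *Efemp1* encode the short fibulins fibulin-5, fibulin-4 and fibulin-3. Fibulin-5 binds tropoelastin and places it on microfibrils. The FPKM of *Fbln5* was 78.6 and 88.8 *in vivo* at 1 week, 145 and 144 at 2 weeks, 22.7 and 21.7 *in vitro* at 1 week and 23.3 and 24.1 at 2 weeks. Its level was higher at 2 weeks in the heart and nearly level in culture. *Fbln5* was 3.76-fold higher *in vivo* at 1 week (log2 1.91 ± 0.07, adjusted p = 3.86e-06) and 6.07-fold at 2 weeks (log2 2.60 ± 0.07, adjusted p = 9.62e-07).

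Fibulin-4, the product of *Efemp2*, is needed for elastic fibre assembly and binds lysyl oxidase. Its FPKM was 85.2 and 89.6 *in vivo* at 1 week, 70.9 and 77.9 at 2 weeks, 64.7 and 60.6 *in vitro* at 1 week and 52.2 and 60.8 at 2 weeks. In the deposited FPKM its *in vivo* libraries lay above the *in vitro* libraries by a small margin. The log2 difference was 0.48 ± 0.09 at 1 week (adjusted p = 0.00526) and 0.40 ± 0.09 at 2 weeks (adjusted p = 0.00958), under the limit on fold change at both times. This difference depended on the processing. Its lowest value over the other settings tried was 0.14 at 1 week and 0.067 at 2 weeks. At neither week did the adjusted p stay under 0.01 in every setting. *Fbln5* stood at 0.923 and 0.991 times the FPKM of *Efemp2 in vivo* at 1 week and at 2.05 and 1.85 times at 2 weeks, against 0.351 to 0.447 times in culture.

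*Efemp1* was the only one of the 10 genes lower *in vivo*, at both weeks. Fibulin-3, its product, is known from basement membranes and fascia, and is also made by mesothelial cells. Its FPKM was 6.25 and 7.499 *in vivo* at 1 week and 7.31 and 8.93 at 2 weeks. In culture it was 85.0 and 76.5 at 1 week and 96.9 and 105 at 2 weeks. *Efemp1* was 11.6-fold lower *in vivo* at 1 week (log2 -3.54 ± 0.13, adjusted p = 3.38e-06) and 12.3-fold lower at 2 weeks (log2 -3.62 ± 0.13, adjusted p = 2.51e-06). *Fbln5* had 11.8 to 19.9 times the FPKM of *Efemp1* in the *in vivo* libraries and 0.231 to 0.283 times in the *in vitro* libraries, so the order of these short fibulins was turned around between the settings. All 8 markers of a mesothelial list were lower *in vivo* at both weeks as well. Their summed FPKM was 18.5 to 19.8 *in vivo* at 1 week, 37.3 to 37.6 at 2 weeks, 259 to 270.2 *in vitro* at 1 week and 576 to 586 at 2 weeks, and none of them was at 0. Their part in the level of *Efemp1* was not tested.

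*Fbln1* and *Fbln2* encode the long fibulins, which bind elastic fibres, fibronectin and basement membranes. The FPKM of *Fbln1* was 309 and 334 *in vivo* at 1 week and 800.3 and 866 at 2 weeks. Values *in vitro* were 41.3 and 48.5 at 1 week and 108 and 111 at 2 weeks. Later libraries were above earlier ones in both settings. *Fbln1* was 7.17-fold higher *in vivo* at 1 week (log2 2.84 ± 0.09, adjusted p = 2.13e-06) and 7.60-fold at 2 weeks (log2 2.93 ± 0.09, adjusted p = 1.64e-06).

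*Fbln2* had an FPKM of 447 and 462 *in vivo* at 1 week and of 332 and 296 at 2 weeks. *In vitro* the values were 152 and 147 at 1 week and 74.1 and 69.4 at 2 weeks. Here the later libraries were below the earlier ones in both settings. *Fbln2* was 3.03-fold higher *in vivo* at 1 week (log2 1.60 ± 0.07, adjusted p = 1.05e-05) and 4.37-fold at 2 weeks (log2 2.13 ± 0.07, adjusted p = 2.55e-06). The ratio of *Fbln1* to *Fbln2* in FPKM was 0.692 and 0.723 *in vivo* at 1 week and 2.41 and 2.93 at 2 weeks. In culture it was 0.272 and 0.329 at 1 week and 1.46 and 1.60 at 2 weeks. *Fbln2* was thus the more abundant long fibulin at 1 week and *Fbln1* at 2 weeks in every library.

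*Emilin1* encodes a glycoprotein found where elastin meets the microfibrils. Its FPKM was 174 and 184 *in vivo* at 1 week, 169 and 160 at 2 weeks, 45.4 and 45.5 *in vitro* at 1 week and 56.2 and 56.4 at 2 weeks. The 4 groups did not overlap. *Emilin1* was 3.93-fold higher *in vivo* at 1 week (log2 1.98 ± 0.06, adjusted p = 1.37e-06) and 2.91-fold at 2 weeks (log2 1.54 ± 0.06, adjusted p = 3.14e-06).

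**Figure D3:**
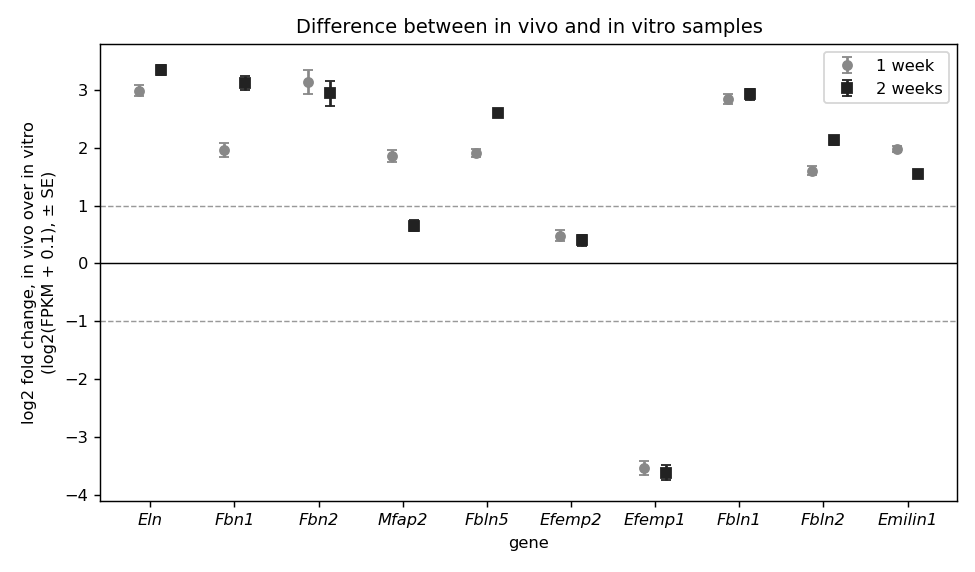
Log2 fold change of the 10 genes, *in vivo* over *in vitro*, at 1 week (grey circles) and 2 weeks (black squares) from limma, with bars of 1 SE and dashed lines at the limit on fold change. *Efemp1* lies at -3.54 and -3.62, *Efemp2* at 0.48 and 0.40, and *Mfap2* moves from 1.86 to 0.65.

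In the order of levels, *Eln* came first in both *in vivo* groups and *in vitro* at 2 weeks, and *Fbln2* came first *in vitro* at 1 week. In the heart at 1 week the order was *Eln*, *Fbln2*, *Fbn1*, *Fbln1*, *Emilin1*, *Efemp2*, *Fbln5*, *Mfap2*, *Fbn2* and *Efemp1*, and the libraries of *Fbn1* and *Fbln1*, of *Efemp2* and *Fbln5* and of *Fbn2* and *Efemp1* overlapped. At 2 weeks it was *Eln*, *Fbln1*, *Fbln2*, *Fbn1*, *Emilin1*, *Fbln5*, *Efemp2*, *Mfap2*, *Efemp1* and *Fbn2*, and only *Fbln2* and *Fbn1* overlapped. In culture *Efemp1*, which was among the lowest 2 genes of the set in the heart, took the third place at both weeks. There its libraries overlapped those of *Fbn1* and *Eln* at 1 week and no neighbour at 2 weeks.

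The same 4 groups were also compared over time. *In vivo*, 2 of the 10 genes were higher at 2 weeks than at 1 week and 0 were lower, beside 1.23% and 0.949% of all tested genes. These were *Fbln1* (log2 1.37 ± 0.09, adjusted p = 0.000687) and *Eln* (log2 1.09 ± 0.09, adjusted p = 0.00119). Without replicate 1 of the *in vivo* 1 week group both calls were lost, at an adjusted p of 0.0126, with log2 fold changes of 1.32 and 0.97. *Fbln5* (log2 0.79 ± 0.07, adjusted p = 0.00142) and *Fbln2* (log2 -0.54 ± 0.07, adjusted p = 0.00623) were under the limit on fold change.

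In culture, 2 genes were higher at 2 weeks and 2 were lower, beside 2.76% and 1.05% of all tested genes. *Fbln1* (log2 1.29 ± 0.09, adjusted p = 0.000374) and *Mfap2* (log2 1.04 ± 0.10, adjusted p = 0.00107) rose. *Fbn1* (log2 -1.33 ± 0.12, adjusted p = 0.000857) and *Fbln2* (log2 -1.06 ± 0.07, adjusted p = 0.000374) fell. *Fbn1* missed the threshold without any 1 of the 4 *in vitro* libraries, at adjusted p from 0.0104 to 0.0116. *Mfap2* was lost without replicate 1 (adjusted p = 0.0119) or replicate 2 (adjusted p = 0.0135) of the 1 week group and, at a log2 fold change of 0.88, without replicate 1 of the 2 weeks group. It was also under the limit on fold change with other scalings, at 0.88 with TPM, 0.94 with quantile normalization and 0.99 without the authors' scaling. *Eln* (log2 0.73 ± 0.09, adjusted p = 0.00263) and *Emilin1* (log2 0.31 ± 0.06, adjusted p = 0.0099) were under the limit on fold change.

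**Figure D4:**
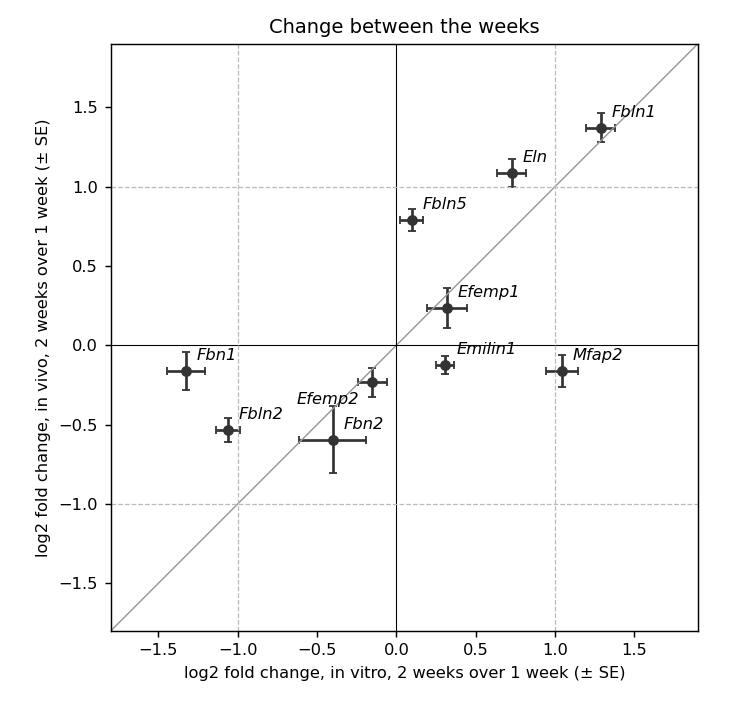
Log2 fold change from 1 week to 2 weeks of each of the 10 genes, with the *in vitro* value on the x axis and the *in vivo* value on the y axis, bars of 1 SE, dashed lines at the limit on fold change and a line of equal change. *Fbln1* lies near that line at 1.29 and 1.37, *Mfap2* lies right of it at 1.04 and -0.16, and *Fbn1* lies left of it at -1.33 and -0.16.

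Whether the *in vivo* to *in vitro* difference itself changed between the weeks was tested as an interaction. Of the 10 genes 0 had a larger and 1 a smaller log2 fold change at 2 weeks, beside 0.573% and 1.15% of all tested genes. This was *Mfap2*, whose log2 fold change was lower by 1.21 ± 0.14 (interaction -1.21, adjusted p = 0.0061). The call was lost without any 1 of the 8 libraries, at adjusted p from 0.0104 to 0.0387, while the value stayed between -1.37 and -1.04. It was lost too with TPM scaling (adjusted p = 0.0113) and quantile normalization (adjusted p = 0.0101). *Fbn1* had an interaction of 1.16 ± 0.17 (adjusted p = 0.0103), just outside the threshold, and passed without replicate 2 of the *in vivo* 2 weeks group (1.35, adjusted p = 0.00856), with TPM scaling (1.26, adjusted p = 0.00741) and with quantile normalization (1.34, adjusted p = 0.00453). *Fbln5* had 0.69 ± 0.10 (adjusted p = 0.00983), under the limit on fold change. The other 7 genes had interactions between -0.43 and 0.52, and none of these passed.

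The likeness of patterns is given as the Pearson correlation of log2(FPKM + 0.1) over the 8 libraries, which fall into 4 groups and share their scaling. Among 7453 genes whose mean FPKM was 5 or more, *Eln* was most like *Scarf2*, *Sfrp2* and *Abi3bp*, each at an r of 1.00. *Fbn1* was most like *Col14a1*, *Col3a1* and *Col5a1*, the last 2 of them fibrillar collagen genes. *Fbln1* was closest to *Ltbp4*, a latent TGF-β binding protein, and then to *Dact3* and *Smoc2*. *Fbn2* was closest to *Col11a1*, *Fbln2* to *Kif26b*, *Fbln5* to *Fgfr1*, *Efemp2* to *Ostc*, *Mfap2* to *Errfi1* and *Emilin1* to *Eng*, while the genes closest to *Efemp1* were *Cgnl1*, *Slc20a2* and *Hacd3*. Within the set, r was 0.99 for *Eln* with *Fbln5*, 0.99 for *Eln* with *Fbln1* and 0.99 for *Fbn1* with *Fbln2*. By contrast it was 0.63 for *Fbn1* with *Mfap2* and 0.66 for *Fbln1* with *Fbln2*. *Efemp1* had a negative r with each of the other 9 genes, from -0.99 with *Fbn2* to -0.82 with *Mfap2*.

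Other genes of the pathway were taken as lists by role. The counts of each list stand beside 7.79% higher and 5.07% lower of all tested genes at 1 week, and 9.02% and 8.05% at 2 weeks. Of 19 genes for microfibril-associated proteins, further fibulins and emilins, 11 rose and 2 fell *in vivo* relative to culture at 1 week, and at 2 weeks 11 rose and 1 fell. Those that fell are not among the genes named here. The list's median log2 fold change was 1.26 and 1.82. *Mfap4*, which binds fibrillin and elastin, had an FPKM of 1030 and 1113 *in vivo* at 1 week and 1415 and 1489 at 2 weeks, against 29.98 and 31.4 and then 83.8 and 92.5 in culture. Its log2 fold change was 5.12 at 1 week (adjusted p = 1.35e-07) and 4.04 at 2 weeks (adjusted p = 3.39e-07), larger than that of any of the 10 genes. *Mfap5*, for MAGP-2, was higher by 3.52 and 4.44 and *Adamtsl2*, for a fibrillin-binding protein, by 2.95 and 2.65 on the same scale. Without replicate 2 of the *in vivo* 1 week group 8 genes of this list were changed at 1 week.

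Of 5 lysyl oxidase genes 3 were higher *in vivo* at 1 week and 4 at 2 weeks, and 0 were lower, with a median log2 fold change of 2.12 and 2.16. *Lox* had an FPKM of 486 and 553 *in vivo* at 1 week and 406 and 351 at 2 weeks, against 80.1 and 74.7 and then 27.1 and 28.3 in culture. Its log2 fold change was 2.74 (adjusted p = 3.1e-06) and 3.76 (adjusted p = 8.87e-07). *Loxl1*, an enzyme that binds fibulin-5, was higher by 2.12 and 2.16 on the log2 scale. *Eln* had 1.20 and 1.24 times the FPKM of *Lox in vivo* at 1 week and 3.40 and 3.71 times at 2 weeks, and 1.012 and 1.04 times and then 4.997 and 4.52 times in culture. The FPKM of the substrate gene thus stood higher relative to that of the enzyme gene at 2 weeks in both settings.

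Of 7 genes for latent TGF-β binding proteins and TGF-β ligands, 5 were higher *in vivo* and 0 lower at either week, with a median log2 fold change of 2.09 and 2.30. *Ltbp4*, which binds fibulins and has a part in elastogenesis, was at 290.3 and 359 FPKM *in vivo* at 1 week and 860.1 and 835 at 2 weeks, against 47.0 and 53.1 and then 115 and 112 in culture. The log2 fold change was 2.69 and 2.90 for *Ltbp4*, 3.90 and 4.07 for *Ltbp2* and 1.91 and 2.30 for *Ltbp3*. Since the *in vitro* medium may have held an inhibitor of the TGF-β receptor, which the sources do not state for these samples, 10 genes known to respond to TGF-β were read beside them. Of these 7 were higher *in vivo* at 1 week and 6 at 2 weeks, and 0 passed as lower. *Acta2* and *Tagln* of this list went the other way at both weeks. The mean FPKM of *Acta2* was 586 at 1 week and 414 at 2 weeks *in vivo*, against 788 and 799.7 *in vitro*. That of *Tagln* was 3.42 and 4.48 *in vivo*, against 5.12 and 5.69 *in vitro*. The log2 fold change was 3.16 and 2.60 for *Ctgf*, now named *Ccn2*, and 2.70 and 2.90 for *Tgfbi*. *Skil* was at 1.08 and 0.50 and *Smad7* at 0.76 and 0.25, of which only *Skil* at 1 week passed, and *Skil* was at 0.95 without replicate 1 of the *in vitro* 1 week group. At 1 week *Skil* was also under the limit on fold change with TPM scaling (0.83) and without the authors' scaling (0.74). *Col1a1* was higher by 2.36 and 3.0. Whether an inhibitor contributed to the level of the elastic fibre genes was not tested.

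Of 9 genes for receptors of elastin, fibrillin or fibulin, at 1 week 2 were higher *in vivo* and 1 was lower, and at 2 weeks 1 was higher and 1 was lower, with medians of 0.08 and -0.38. Among all tested genes 9.02% were higher and 8.05% lower at 2 weeks, and 7.79% and 5.07% at 1 week. *Itgb5*, for the integrin β5 chain, had log2 fold changes of 0.56 and 1.51, and the second passed the test. With replicate 2 of the *in vivo* 2 weeks group left out, 4 of these genes were changed at that time. Of 9 genes for elastin-degrading enzymes 8 were tested, and at 1 week 4 of them were higher *in vivo* and 1 was lower, while the 2 weeks comparison found 2 higher and 2 lower, with medians of 0.49 and -0.13. *Mmp2*, for a gelatinase, was higher by 1.65 at both weeks. *Ctsb* had log2 fold changes of -0.39 and -1.19 and *Ctss* of 1.25 and 0.20, of which the second of *Ctsb* and the first of *Ctss* passed. That of *Ctss* was under the limit on fold change with TPM scaling (0.999), quantile normalization (0.69) and without the authors' scaling (0.90). *Mmp12*, the macrophage elastase, was at 3.60 to 5.50 FPKM *in vivo* and 8.33 to 18.3 FPKM in culture and was lower by 1.58 and 1.13 on the log2 scale *in vivo*. At 1 week 3 genes of the enzyme list were changed without replicate 1 of the *in vivo* group, where *Mmp12* (adjusted p = 0.0112) and *Ctss* (adjusted p = 0.0124) were lost. *Ctss* was lost as well without replicate 1 (adjusted p = 0.0178) or replicate 2 (adjusted p = 0.0107) of the *in vitro* group, and the 2 weeks call of *Mmp12* needed replicate 2 of the *in vivo* group (-0.92 without it, adjusted p = 0.0167) and that of the *in vitro* group (-0.98, adjusted p = 0.0236).

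**Figure D5:**
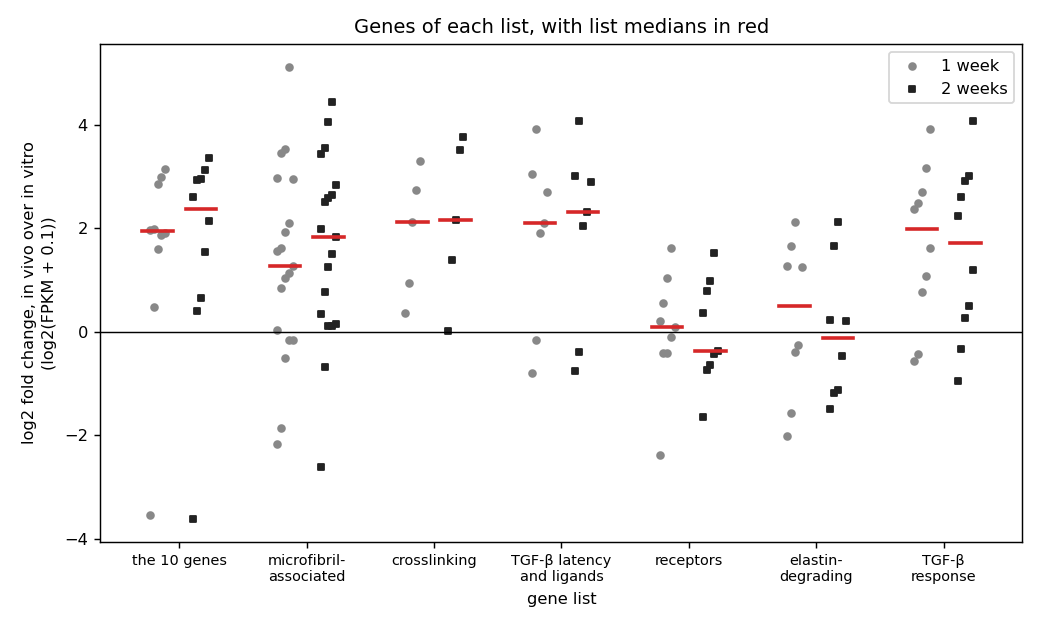
Log2 fold change, *in vivo* over *in vitro*, of each tested gene of the set and of 6 lists, at 1 week (grey circles) and 2 weeks (black squares), with list medians as red bars. The medians of the set and of the crosslinking, latency and microfibril lists lie between 1.26 and 2.36, those of the receptor and enzyme lists between -0.38 and 0.49, and the TGF-β response list shares *Ltbp2* with the latency list.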

How the data were processed

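RNA from eGFP-positive MICFs sorted on Days 7 and 14 was made into mRNA libraries, sequenced and mapped by a provider. The submitters' notes name CASAVA, HISAT2 2.0.5 and mm10, while the counting tool and its use of strand are not given in the sources used here. The authors deposited FPKM for 54532 genes in 8 libraries. The product of FPKM and gene length came in whole steps for 100% of values, within 0.05 of a step, and the steps were counted as fragments. Against the fragments on genes, the library size implied by the FPKM was 0.863 to 0.915 *in vivo* and 1.09 to 1.15 *in vitro*, so the values hold a scaling between libraries.

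Genes that reached an FPKM of 0.5 in 2 or more libraries were tested on log2(FPKM + 0.1) with limma 3.58.1 in R 4.3.3, with moderated variances and an intensity trend, in 1 fit of the 4 groups, or with week as a covariate over both weeks. The study's methods give p under 0.01 and a fold change over 2 and name no adjustment. Here the p was adjusted. The procedure was also run on simulated data, where fewer recovered changes were required of the interaction than of the other comparisons. The outcome of that run is not reported here. Values were prepared with Python 3.11.15, pandas 2.3.3 and numpy 2.4.6 and drawn with matplotlib 3.10.9. Coordinates are those of the file, and 98.3% of 54495 identifiers shared with GENCODE vM21 had the same start and end. The members, lists, motifs and genes to name were chosen with earlier results of these data known. The 10 genes are named in full, and from each list the 3 most abundant tested genes could be named, beside *Mfap4*, *Mfap5*, *Lox*, *Loxl1*, *Ltbp2*, *Ltbp4*, *Mmp12*, *Col1a1* and 5 TGF-β response genes, of which 1 is not reported here by its values. Marker and receptor lists were given by sums or counts, with some single genes named beside them. Alternatives were other pseudocounts, filters, scalings, thresholds and gene sets, no variance trend, voom, a replicate block, fewer libraries and each library left out.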

Additional observations from a re-analysis of the deposited data

Results flagged for a closer look

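In 3 of the genes named above, the *in vivo* to *in vitro* difference changed between the weeks by the interaction test in limma. The interaction, the log2 fold change at 2 weeks minus that at 1 week, was -1.21 for *Mfap2* (adjusted p = 0.0061), -1.08 for *Mfap4* (adjusted p = 0.00382) and 1.02 for *Lox* (adjusted p = 0.00796). All 3 missed the threshold with a replicate block, at adjusted p of 0.0141, 0.01 and 0.0215, and without any 1 of the 8 libraries, where the lowest adjusted p was 0.0104, 0.0121 and 0.0133. Their cause was not tested. Cell markers, some of them named above, were outside this choice. By the same test 3 of 10 mural and 3 of 9 endothelial markers had a smaller log2 fold change at 2 weeks. So had 1 of the 8 tested cardiomyocyte markers and 1 of 8 mesothelial markers, beside 1.15% of all tested genes. No marker had a larger one, and 0 fibroblast or macrophage markers passed. Which markers passed is not reported here.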

How the results depend on the processing

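Of 1300 repeats of the 6 comparisons of the 10 genes under other settings, 1233 kept their direction and their side of the threshold, 33 lost and 21 gained a call, and 13 changed sign. Between *in vivo* and *in vitro* samples, 9 members were changed at 1 week, 8 at 2 weeks and 9 over both weeks whichever library was left out, and 8 over both weeks without the authors' scaling. Members changed in the interaction, 1 in the reported analysis, came to 2 with a pseudocount of 1, with a filter at an FPKM of 1 in 4 or more libraries, without the authors' scaling, with protein-coding genes only, with voom and at an adjusted p under 0.05 with the fold limit. With TPM scaling or quantile normalization the count stayed at 1, but the gene was *Fbn1* in place of *Mfap2*. Counts came to 5 at that p without the limit, and to 0 with no filter, no variance trend or a replicate block, where 6, 5 and 6 members had an unadjusted p under 0.05 in limma. Leaving out each library gave 0 to 1. For change over time *in vivo*, 2 in the reported analysis, the count was 1 with quantile normalization, 4 at an adjusted p under 0.05 with no fold limit, 0 with only the 4 libraries compared and 0 to 2 with each library left out. In culture, 4 in the reported analysis, it was 3 with TPM scaling, quantile normalization or no authors' scaling, 6 at an adjusted p under 0.05 with no fold limit, 0 with only the 4 libraries and 2 to 4 with each left out. With only 4 libraries, 0 genes of all passed, while 6 members *in vivo* and 7 in culture had an unadjusted p under 0.05 in limma. The cause of these moves was not tested, beyond the fewer samples.

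Signs turned only for values that had not passed. In the interaction, quantile normalization gave -0.045 for *Fbln1*, 0.13 for *Efemp1* and 0.043 for *Efemp2*, and TPM scaling gave 0.0089 for *Efemp1* and 0.0089 for *Efemp2*. Leaving out each library gave an interaction of -0.49 to 0.10 for *Fbn2*, -0.030 to 0.20 for *Fbln1*, -0.23 to 0.059 for *Efemp1* and -0.19 to 0.029 for *Efemp2*, and a change over time *in vivo* of -0.35 to 0.022 for *Fbn1*. Over time *in vitro*, *Fbln5* was at -0.073 with TPM scaling and -0.022 with quantile normalization. Between *in vivo* and *in vitro* samples, quantile normalization gave -0.12 for *Itgb5* at 1 week and -0.066 for *Ctss* at 2 weeks, and FPKM without the scaling gave -0.13 for *Ctss* and -0.076 for *Smad7* at 2 weeks.

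Over all genes, interaction calls fell from 271 to 27 with the replicate block. Replicate numbers did not pair the samples, with correlations of their deviations between -0.05 and -0.01, and the block ended no other member's call. The counts of 2 libraries per group limit small changes, and *Fbn2*, at 70 to 1062 fragments, rests on the fewest counts.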
